A study of Mus musculus with 13 samples.

Results

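Ribosome biogenesis, the making of ribosomes in the nucleolus, was followed through 45 genes chosen by name for their role in it, of which 44 had a value among the 18194 genes measured. Each gene was read on its brightest probe set, the one with the highest mean over all arrays. Mrto4, a large subunit assembly factor, lay only on a probe set that carries several gene symbols and was left out. The 44 genes comprise 7 of RNA polymerase I transcription, 8 of the small nucleolar ribonucleoproteins (snoRNPs), 13 of small subunit assembly, 13 of 14 of large subunit assembly and 3 that act at several steps.

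The study profiled neuroblastomas, tumours of the sympathetic nervous system, that arose in C57BL/6 mice carrying transgenes active in the neural crest, and asked how tumours with MYCN, mutated ALK or both compare. The groups were tumours with both MYCN and mutated ALK (called double transgenic here, n = 3 arrays), tumours with MYCN (n = 4), tumours with mutALK (n = 3) and normal adrenal gland (n = 3). MYCN is a transcription factor and ALK a receptor tyrosine kinase. Tumours were taken once they could be felt, and the labels used here give neither the promoter that drives the transgenes nor the age of the mice. Nothing in the labels ties each array to a separate animal, so the p-values cover only the variation among these samples, which may be in part technical. In particular, mutALK 2 and 3 share a number in their titles, as do MYCN 2 and 3. RNA of whole tissue was measured, so fewer cells of a type and less RNA per cell cannot be told apart.

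Ribosomes are built around ribosomal RNA. RNA polymerase I copies it as one long precursor, box C/D snoRNPs guide its methylation, box H/ACA snoRNPs guide its pseudouridylation, and large sets of assembly factors fold, cut and export the small and the large subunit separately. The MYC family of transcription factors, which bind DNA with MAX at the E-box CACGTG, is known for raising many genes of this pathway, and large nucleoli are a known feature of tumour cells with MYCN amplification.

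Promoter sequence was available for 39 of the 44 genes, as 48 windows from 250 bases before to 50 bases after a transcription start (RefSeq, mouse assembly GRCm38.p6), and the windows were searched on both strands for CACGTG, which reads the same on both, and for the related CACGCG. The E-box was found in 9 of the 48 windows (18.8%), against 8.72% of 18110 windows of all genes on the array and 7.15% of all 32851 windows in the table. CACGCG, which can overlap its own reverse complement and was counted once per window, was found in 33.3% of the windows, against 13.9% and 9.27%. Base composition differs between promoters, and its part in these shares was not tested. A match is a run of letters, not a shown binding site. The promoters of 2 genes are printed 5′ to 3′ on the gene's strand, with CACGTG in capitals. Of the genes with CACGTG, Wdr43 had the highest rise between MYCN and mutALK tumours, and of those without it, Ebna1bp2. That only 1 of the 2 holds CACGTG was therefore set by the choice.
Wdr43 promoter, chr17:71615965-71616264, plus strand: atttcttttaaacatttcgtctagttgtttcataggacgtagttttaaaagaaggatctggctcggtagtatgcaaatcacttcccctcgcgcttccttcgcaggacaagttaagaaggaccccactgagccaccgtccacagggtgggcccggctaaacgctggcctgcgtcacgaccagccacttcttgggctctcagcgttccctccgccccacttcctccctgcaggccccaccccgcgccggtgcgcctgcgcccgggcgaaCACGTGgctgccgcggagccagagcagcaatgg
Ebna1bp2 promoter, chr4:118620549-118620848, plus strand: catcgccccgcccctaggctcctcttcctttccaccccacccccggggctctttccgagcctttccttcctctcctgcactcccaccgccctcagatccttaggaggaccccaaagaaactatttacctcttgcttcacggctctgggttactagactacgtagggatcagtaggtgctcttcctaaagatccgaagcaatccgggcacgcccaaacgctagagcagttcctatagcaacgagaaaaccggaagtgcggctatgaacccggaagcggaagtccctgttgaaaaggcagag
The Wdr43 window holds one CACGTG just after the start, and the Ebna1bp2 window holds neither motif. The other sites are printed with up to 20 bases on each side to show how their surroundings differ, with CACGTG in capitals.
Rrn3, chr16:13780464-13780509, plus strand: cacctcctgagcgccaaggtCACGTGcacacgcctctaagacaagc
Rrn3, chr16:13780631-13780676, plus strand: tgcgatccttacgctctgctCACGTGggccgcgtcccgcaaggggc
Mybbp1a, chr11:72441347-72441376, plus strand: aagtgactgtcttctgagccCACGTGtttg
Imp4, chr1:34439688-34439733, plus strand: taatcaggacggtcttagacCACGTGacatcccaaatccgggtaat
Tsr1, chr11:74898084-74898129, plus strand: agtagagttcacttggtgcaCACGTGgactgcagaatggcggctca
Utp20, chr10:88826765-88826797, minus strand: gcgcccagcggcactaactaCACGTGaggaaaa
Nop2, chr6:125131803-125131848, plus strand: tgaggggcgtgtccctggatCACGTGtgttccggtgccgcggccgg
Pes1, chr11:3963957-3964002, plus strand: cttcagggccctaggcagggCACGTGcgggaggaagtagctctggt
Grwd1, chr7:45830740-45830775, minus strand: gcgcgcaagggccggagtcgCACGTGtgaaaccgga
They belong to 2 genes of RNA polymerase I transcription, 3 of the small subunit besides Wdr43 and 3 of the large subunit, and none of the snoRNP windows held CACGTG. The 9 genes with the motif had a median difference of 1.13 between MYCN and mutALK tumours (range 0.54 to 1.82), and the 30 without it had 0.99 (range 0.48 to 2.03), so the ranges overlapped almost entirely.

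All values are log2 expression, so that a difference of 1 is 2-fold, and differences are given ± SE with p-values adjusted over all genes. Array medians were 5.8 to 5.9, and the median difference over all genes was within 0.031 of 0 in each comparison. The 44 genes were bright, with means between the 52.9th (Rrp12) and the 99.5th (Npm1) percentile of all genes. The 10 measured markers of adrenal cortex averaged 5.41 to 7.11 in the tumours, against 11.53 to 12.92 in adrenal gland. The 6 measured sympathetic markers averaged 10.65 to 11.40 in the tumours, against 6.87 to 8.77 in adrenal gland. For the 7 markers of chromaffin cells the tumours averaged 9.62 to 11.62, against 10.49 to 11.51 in adrenal gland. The 11 liver markers averaged above 8 in 5 arrays (double transgenic 1, MYCN 2, mutALK 1 and 3, adrenal 2; 8.71 to 11.78) and 4.41 to 5.80 in the others, and these 5 are called the liver arrays below. Adrenal 2 also read 10.30 for the 8 neuronal markers, while the other adrenal arrays read 5.58 and 4.84. Neuronal markers averaged 12.19 in double transgenic, 10.62 in MYCN and 12.67 in mutALK tumours. The 5 measured fat markers averaged 5.86 in double transgenic, 8.55 in MYCN and 7.18 in mutALK tumours, against 12.39 in adrenal gland, and the 6 endothelial markers 5.03, 6.68 and 6.54 in the same tumours, against 8.82 in adrenal gland. The part of these cell types in the results was not tested. The 15 measured genes of cell division averaged 10.35 to 10.86 in double transgenic, 10.96 to 11.20 in MYCN and 9.21 to 10.11 in mutALK tumours, against 6.05 to 7.0 in adrenal gland. This is the same order of groups as that of the ribosome biogenesis genes below, and the part of cell division in the results was not tested.

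Ribosome biogenesis genes were highest in MYCN tumours, next in double transgenic tumours, lower in mutALK tumours and lowest in adrenal gland. The mean over the 44 genes was 9.77, 9.68 and 9.72 in double transgenic tumours, 10.13, 10.41, 10.28 and 10.27 in MYCN tumours and 9.11, 9.06 and 9.40 in mutALK tumours, against 8.89, 8.59 and 9.08 in adrenal gland. No tumour group overlapped another in this mean, while mutALK 2 (9.06) lay just below adrenal 3 (9.08). Group means were 9.73 ± 0.04 (SD, n = 3), 10.27 ± 0.11 (n = 4) and 9.19 ± 0.18 (n = 3), against 8.86 ± 0.25 (n = 3). Single arrays shifted many of the genes together: mutALK 3 was the highest of its group for 35 of the 44, MYCN 1 the lowest for 35, adrenal 2 the lowest for 36 and adrenal 3 the highest for 38.

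**Figure D1:**
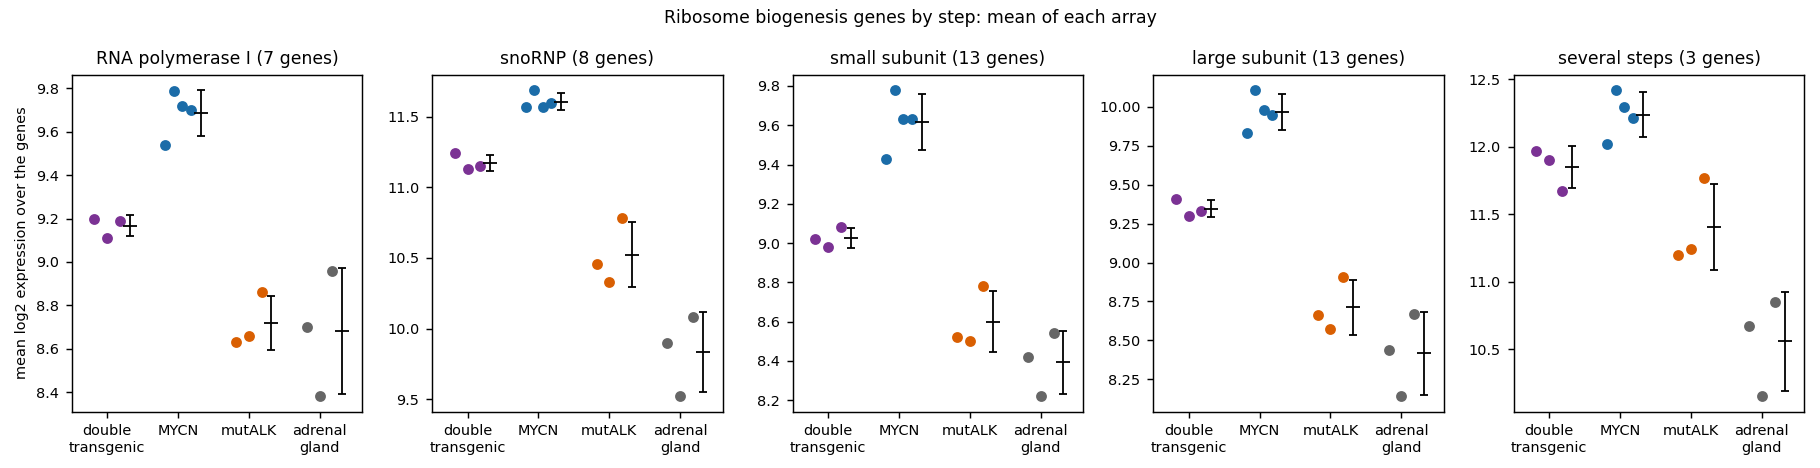
Mean log2 expression of the ribosome biogenesis genes of each step (vertical axes, each with its own scale) in the 13 arrays, 1 point per array, with bars for the group mean ± SD. In each step the 4 MYCN arrays lie highest and the 3 double transgenic arrays lie above the mutALK arrays for 4 of the steps, while for genes of several steps mutALK 3 (11.77) lies above double transgenic 3 (11.67).

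Against adrenal gland, nearly the whole set rose in MYCN tumours and most of it in double transgenic tumours, while mutALK tumours had a mixture of rises, falls and genes that did not pass. In double transgenic tumours 36 of the 44 rose and 0 fell, with a median difference of 0.85, where 24.3% of all genes rose and 24.2% fell. In MYCN tumours 42 rose and 0 fell, with a median of 1.44, where 25.3% of all genes rose and 24.8% fell. In mutALK tumours 17 rose and 3 fell, with a median of 0.32, where 21.3% of all genes rose and 21% fell. The 3 comparisons share the adrenal arrays, and these shares of all genes also apply to the counts by step below. Without the liver arrays, which leaves 1 mutALK array whose spread is taken from the other groups, the median in mutALK tumours was 0.09.

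**Figure D2:**
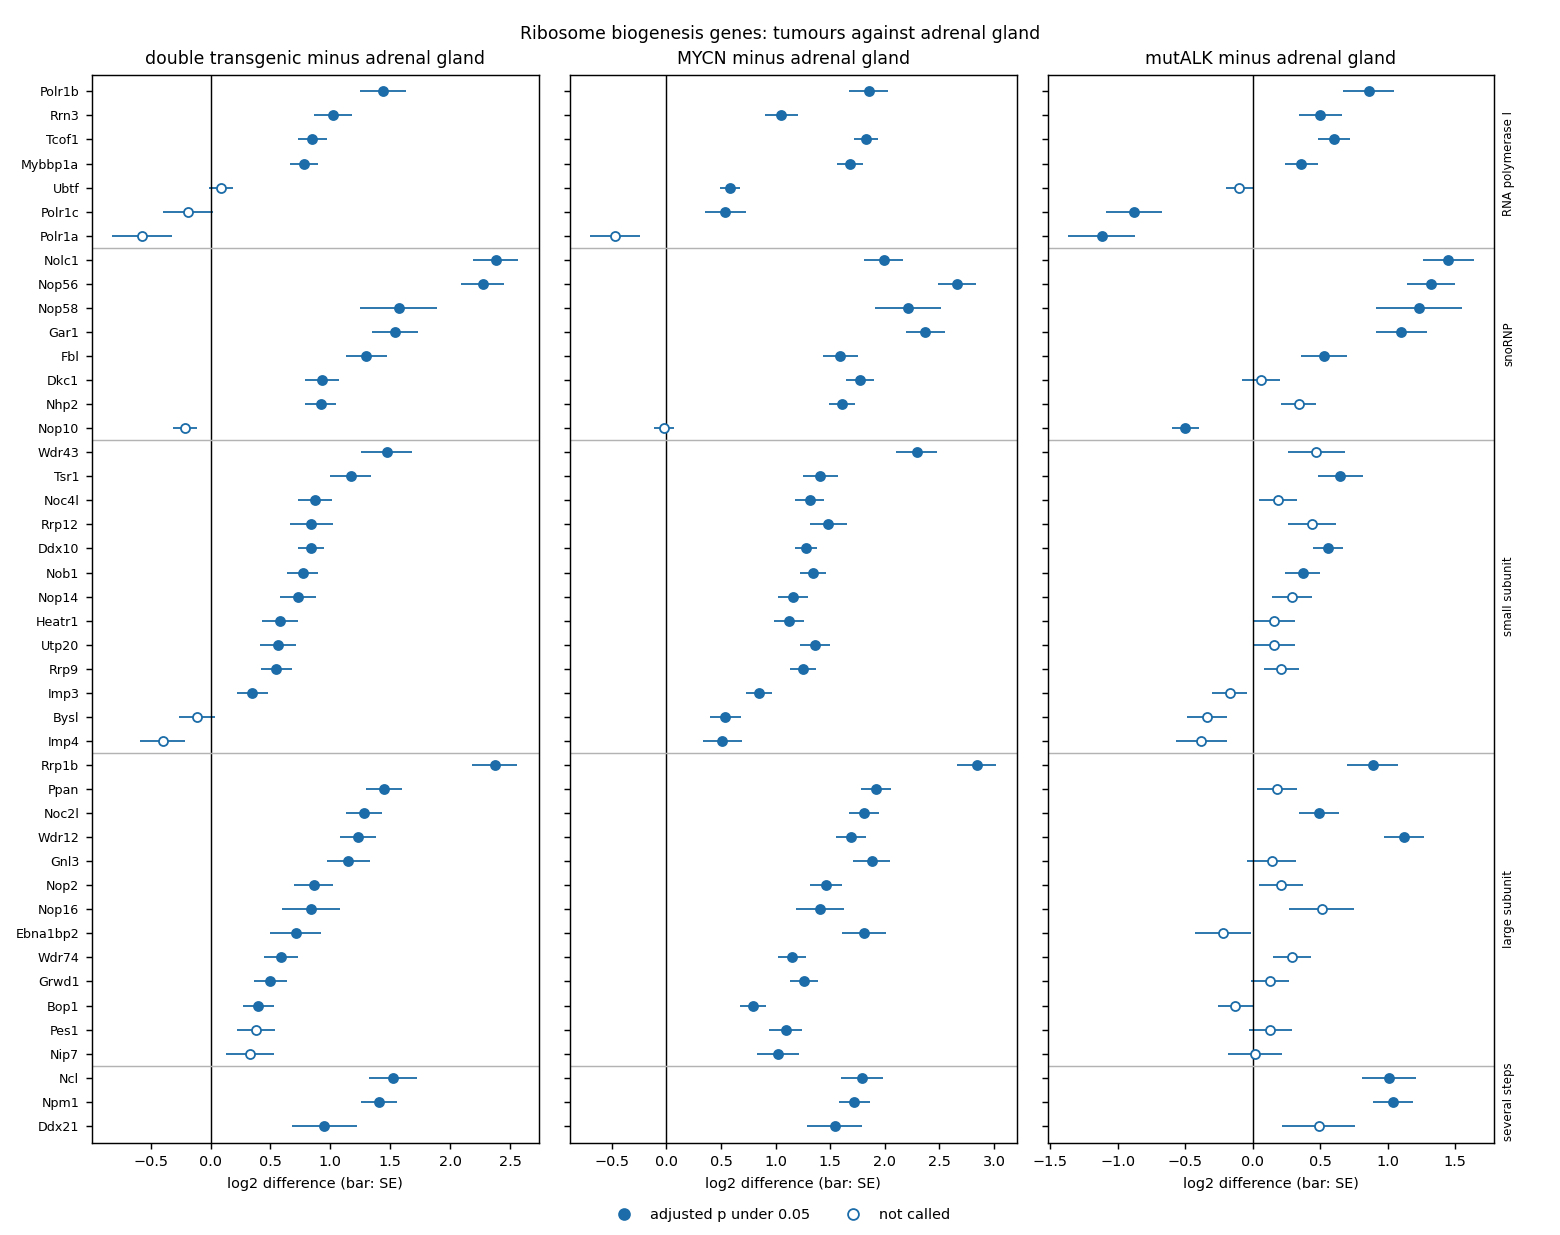
Difference in log2 expression from adrenal gland (horizontal axes, bars ± SE) for each of the 44 genes (rows, by step and ordered by the first panel), in double transgenic, MYCN and mutALK tumours. Filled points passed an adjusted p of 0.05; the median lies at 0.85 in double transgenic, 1.44 in MYCN and 0.32 in mutALK tumours.

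Between the tumours, MYCN tumours had higher means than mutALK tumours for all 44 genes, 43 of them called. Double transgenic means lay between them for most genes. MYCN tumours were higher than mutALK tumours for 43 of the 44 and lower for 0, with a median of 1.01, where 17.2% of all genes were higher and 13.6% lower. Polr1a, the remaining gene, differed by 0.65 ± 0.23 (adjusted p = 0.0537). Double transgenic tumours were higher than mutALK tumours for 17 and lower for 0, with a median of 0.45, where 8.39% of all genes were higher and 6.03% lower. They were lower than MYCN tumours for 26 and higher for 0, with a median of -0.56, where 6.66% of all genes were lower and 6.16% higher. The counts of the double transgenic tumours changed on leaving out arrays. The share of all genes called under these settings is not given here, so the drops cannot be set against a change over all genes. The 17 became 9 without mutALK 2 and 11 without mutALK 1 or double transgenic 1. The 26 became 14 without double transgenic 2, 16 without double transgenic 3, 15 without MYCN 2, 17 without MYCN 3 and 17 without the liver arrays.

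**Figure D3:**
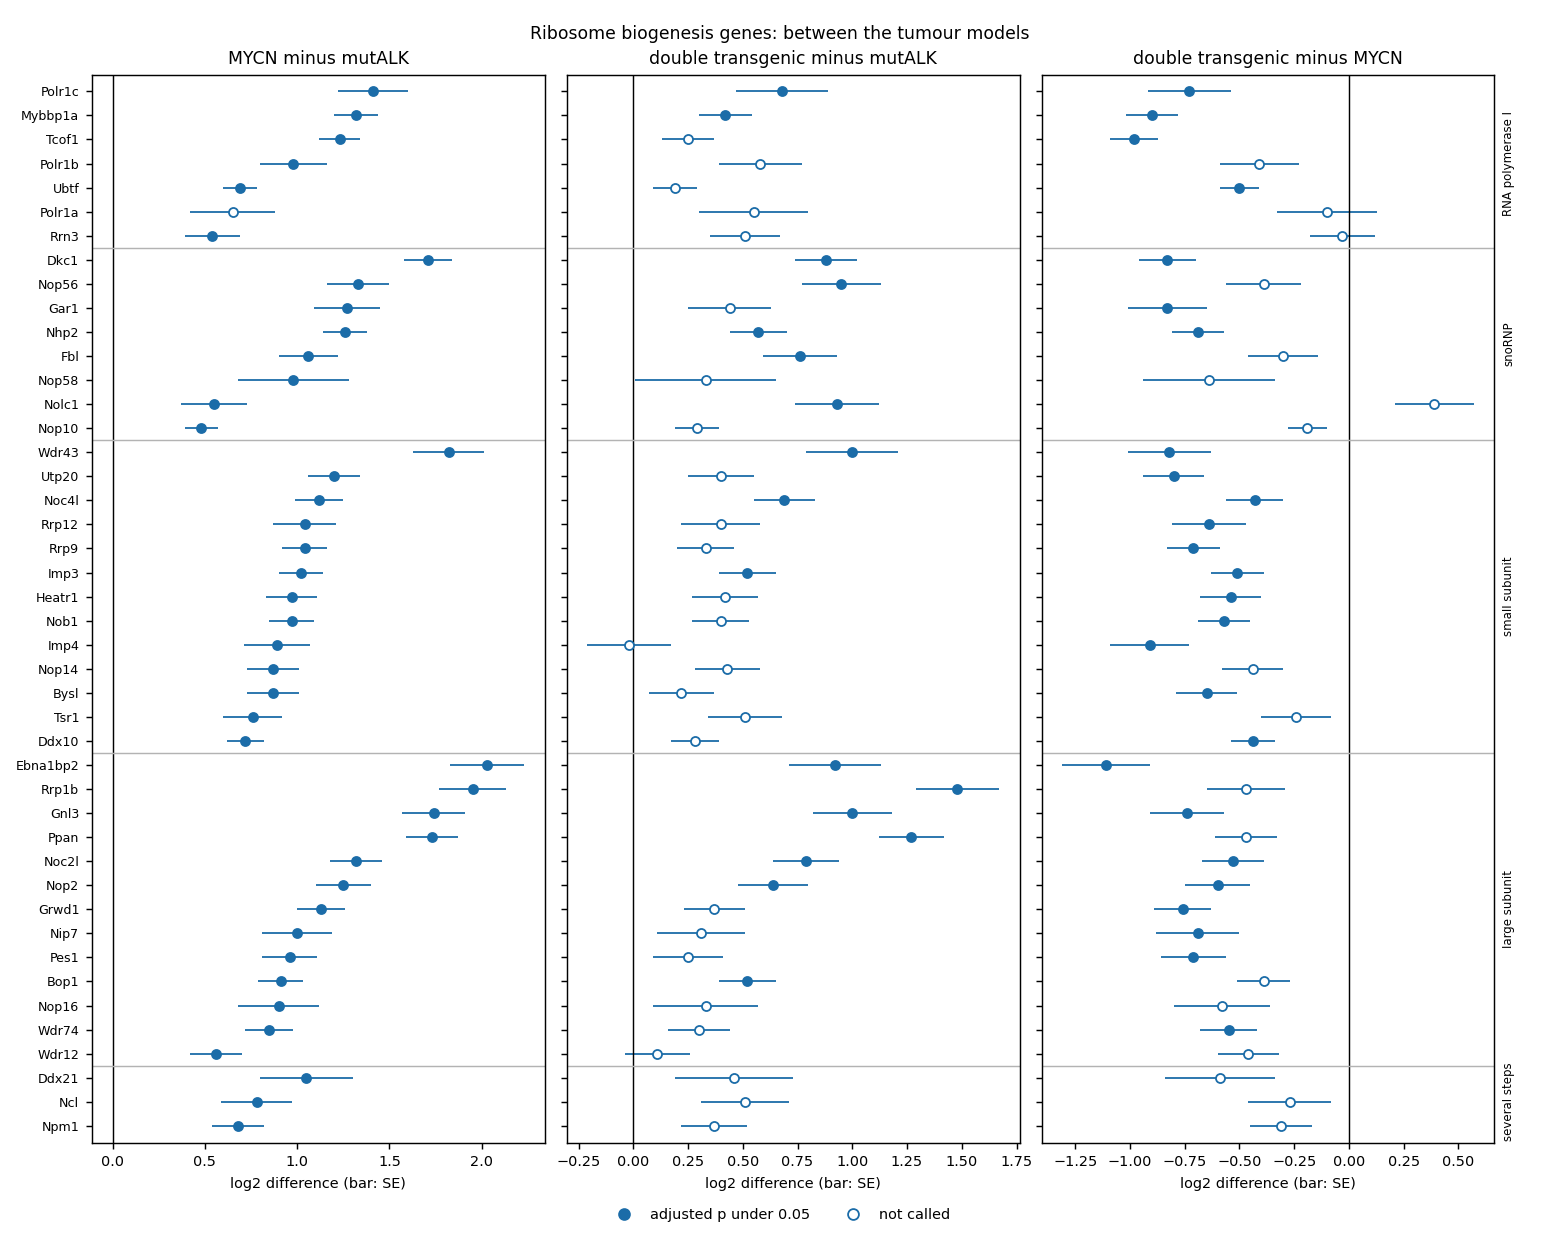
Difference in log2 expression between tumour models (horizontal axes, bars ± SE) for each of the 44 genes (rows, by step). Filled points passed an adjusted p of 0.05. All 44 genes lie right of 0 for MYCN minus mutALK (43 called). For double transgenic minus mutALK 17 are called right of 0, and for double transgenic minus MYCN 26 are called left of 0.

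RNA polymerase I transcription held 2 of the 3 falls in mutALK tumours. Of its 7 genes, 4 rose in double transgenic, 6 in MYCN and 4 in mutALK tumours against adrenal gland, and 2 fell in mutALK tumours. Polr1b, the second largest subunit of the polymerase, read 8.66, 8.64 and 8.59 in double transgenic tumours, 8.88, 9.07, 9.09 and 9.11 in MYCN tumours and 7.94, 8.02 and 8.20 in mutALK tumours, against 7.29, 6.66 and 7.61 in adrenal gland. Every tumour array lay above every adrenal array. It rose by 1.44 ± 0.19 (adjusted p = 7.64e-05) in double transgenic, 1.85 ± 0.18 (adjusted p = 5.92e-06) in MYCN and 0.86 ± 0.19 (adjusted p = 0.00353) in mutALK tumours, and the last value was 0.57 (adjusted p = 0.0627) without the liver arrays. Polr1a, the catalytic large subunit, read 7.83, 7.77 and 7.75 in double transgenic tumours, 7.48, 8.19, 7.90 and 7.96 in MYCN tumours and 7.11, 7.34 and 7.23 in mutALK tumours, against 8.50, 7.71 and 8.84 in adrenal gland. The mutALK arrays lay below all others, and the adrenal arrays were spread over more than 1 unit. The mutALK difference of -1.12 ± 0.25 (adjusted p = 0.00342) was the largest fall against adrenal gland among the 44 genes, while -0.47 ± 0.23 (adjusted p = 0.122) in MYCN and -0.57 ± 0.25 (adjusted p = 0.0819) in double transgenic tumours did not pass. Averaged over its probe sets, the mutALK value was -0.30 (adjusted p = 0.103). That average includes probe sets with means of only 2.67 and 2.66 over all arrays, where the lowest value of the data was 2.04. The remaining probe sets were at -0.66 (adjusted p = 0.0521) and 0.57 (adjusted p = 0.274). Polr1c, a subunit shared by RNA polymerases I and III, read 9.88, 9.88 and 9.77 in double transgenic tumours, 10.48, 10.64, 10.68 and 10.49 in MYCN tumours and 9.12, 9.02 and 9.34 in mutALK tumours, against 9.99, 9.54 and 10.57 in adrenal gland. The mutALK arrays were the lowest, and the adrenal arrays were spread from below the double transgenic range into the MYCN range. It fell in mutALK tumours, at -0.88 ± 0.21 (adjusted p = 0.00491, or 0.0546 with the compared groups alone), rose in MYCN tumours by 0.54 ± 0.19 (adjusted p = 0.0361), and had the step's largest difference between MYCN and mutALK tumours, 1.41 ± 0.19 (adjusted p = 0.000295). Its difference of 0.68 ± 0.21 between double transgenic and mutALK tumours passed narrowly (adjusted p = 0.0485) and did not pass under 15 of 24 other settings, with adjusted p-values up to 0.154.

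The factors that recruit or serve the polymerase were less divided. Rrn3, the initiation factor that joins the polymerase to the promoter, rose by 1.02 in double transgenic, 1.05 in MYCN and 0.50 in mutALK tumours, and its 2 promoter sites are printed above. Ubtf, which keeps ribosomal DNA open, rose by 0.58 ± 0.09 (adjusted p = 0.000232) in MYCN tumours and read 0.09 in double transgenic and -0.10 in mutALK tumours, neither called. Tcof1, the nucleolar protein mutated in Treacher Collins syndrome, read 8.12, 7.78 and 8.02 in double transgenic tumours, 8.82, 9.10, 8.94 and 8.97 in MYCN tumours and 7.66, 7.61 and 7.90 in mutALK tumours, against 7.07, 7.18 and 7.12 in adrenal gland. The MYCN arrays stood apart from all other tumours, and mutALK 3 overlapped the double transgenic range. Tcof1 was -0.98 ± 0.11 (adjusted p = 0.000799) in double transgenic against MYCN tumours, the largest such fall of the step, and 0.25 ± 0.12 (adjusted p = 0.194) in double transgenic against mutALK tumours. Mybbp1a, a nucleolar MYB-binding protein, behaved alike, with double transgenic tumours at -0.90 ± 0.12 against MYCN tumours and, called here, at 0.42 ± 0.12 (adjusted p = 0.044) against mutALK tumours.

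The snoRNP genes had the highest median of the steps against adrenal gland in MYCN tumours (1.88), with 1.42 in double transgenic and 0.82 in mutALK tumours. Of 8 genes, 7 rose in double transgenic, 7 in MYCN and 5 in mutALK tumours, and 1 fell in mutALK tumours. The core of box C/D particles, Nop56, Nop58 and the methyltransferase Fbl, rose together in every tumour group: by 1.30 to 2.27 in double transgenic, 1.59 to 2.66 in MYCN and 0.53 to 1.32 in mutALK tumours. Nop56 read 11.33, 11.37 and 11.28 in double transgenic tumours, 11.74, 11.82, 11.65 and 11.66 in MYCN tumours and 10.14, 10.23 and 10.79 in mutALK tumours, against 9.09, 8.75 and 9.34 in adrenal gland. The 4 groups did not overlap. Its rise in MYCN tumours, 2.66 ± 0.17 (adjusted p = 2.74e-07), was the second largest of the 44, and it was the snoRNP gene with the largest rise in double transgenic against mutALK tumours, 0.95 ± 0.18 (adjusted p = 0.00724), or 0.59 (adjusted p = 0.049) averaged over its probe sets. On the brightest probe sets none of the 3 was called between double transgenic and MYCN tumours, where the differences were -0.39 for Nop56, -0.64 for Nop58 and -0.30 for Fbl.

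The core of box H/ACA particles was divided in mutALK tumours on the brightest probe sets. Dkc1, the pseudouridine synthase mutated in dyskeratosis congenita, read 10.81, 10.48 and 10.50 in double transgenic tumours, 11.36, 11.47, 11.45 and 11.46 in MYCN tumours and 9.90, 9.48 and 9.79 in mutALK tumours, against 9.67, 9.51 and 9.82 in adrenal gland. The mutALK arrays overlapped the adrenal range, and the MYCN arrays lay above all others. Dkc1 had a mutALK difference of 0.06 ± 0.14 (adjusted p = 0.788), with a 95% interval -0.24 to 0.35, while MYCN tumours exceeded mutALK tumours by 1.71 ± 0.13 (adjusted p = 1.56e-05). Of the 2 other Dkc1 probe sets, one rose in mutALK tumours, by 0.83 (adjusted p = 0.00768), and the other was at 0.25 (adjusted p = 0.35). Double transgenic tumours were at -0.83 ± 0.13 (adjusted p = 0.00251) against MYCN tumours. Gar1 rose by 1.10 ± 0.19 (adjusted p = 0.000778) in mutALK tumours and Nhp2 was at 0.34 ± 0.13 (adjusted p = 0.0513), both structural proteins of the particle. Nop10, its smallest protein, read 12.19, 12.15 and 12.29 in double transgenic tumours, 12.28, 12.49, 12.35 and 12.46 in MYCN tumours and 11.94, 11.96 and 11.85 in mutALK tumours, against 12.29, 12.40 and 12.57 in adrenal gland. The mutALK arrays were the lowest of all, and the MYCN and adrenal arrays overlapped. Nop10 fell in mutALK tumours, at -0.50 ± 0.10 (adjusted p = 0.00183), though at -0.47 (adjusted p = 0.0884) without the liver arrays. In MYCN tumours it differed from adrenal gland by -0.02 ± 0.09 (adjusted p = 0.862), 95% interval -0.23 to 0.18, which with Polr1a makes up the 2 genes that did not pass there.

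Nolc1, a nucleolar chaperone that binds both kinds of particle and RNA polymerase I, read 10.54, 10.34 and 10.56 in double transgenic tumours, 10.13, 10.19, 10.04 and 10.02 in MYCN tumours and 9.54, 9.13 and 9.97 in mutALK tumours, against 8.25, 7.84 and 8.22 in adrenal gland. It was the one gene of the 44 with a higher mean in double transgenic than in MYCN tumours, and these arrays did not overlap. That difference, 0.39 ± 0.18 (adjusted p = 0.186), did not pass, and it rests on the brightest probe set: the 2 other Nolc1 probe sets read -0.74 (adjusted p = 0.0577) and -0.93 (adjusted p = 0.0145). Against adrenal gland Nolc1 had the largest snoRNP rise in mutALK tumours, 1.45 ± 0.19 (adjusted p = 9.5e-05), and in double transgenic tumours, 2.38 ± 0.19 (adjusted p = 1.79e-06). In MYCN tumours it rose by 1.99 ± 0.18. These 2 rankings also rest on the brightest probe set: averaged over its probe sets, Nolc1 rose by 0.71 in mutALK and 1.46 in double transgenic tumours. Its 2 other probe sets did not pass in mutALK tumours, at 0.48 (adjusted p = 0.159) and 0.20 (adjusted p = 0.546). In double transgenic tumours they rose by 1.37 and 0.63.

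**Figure D4:**
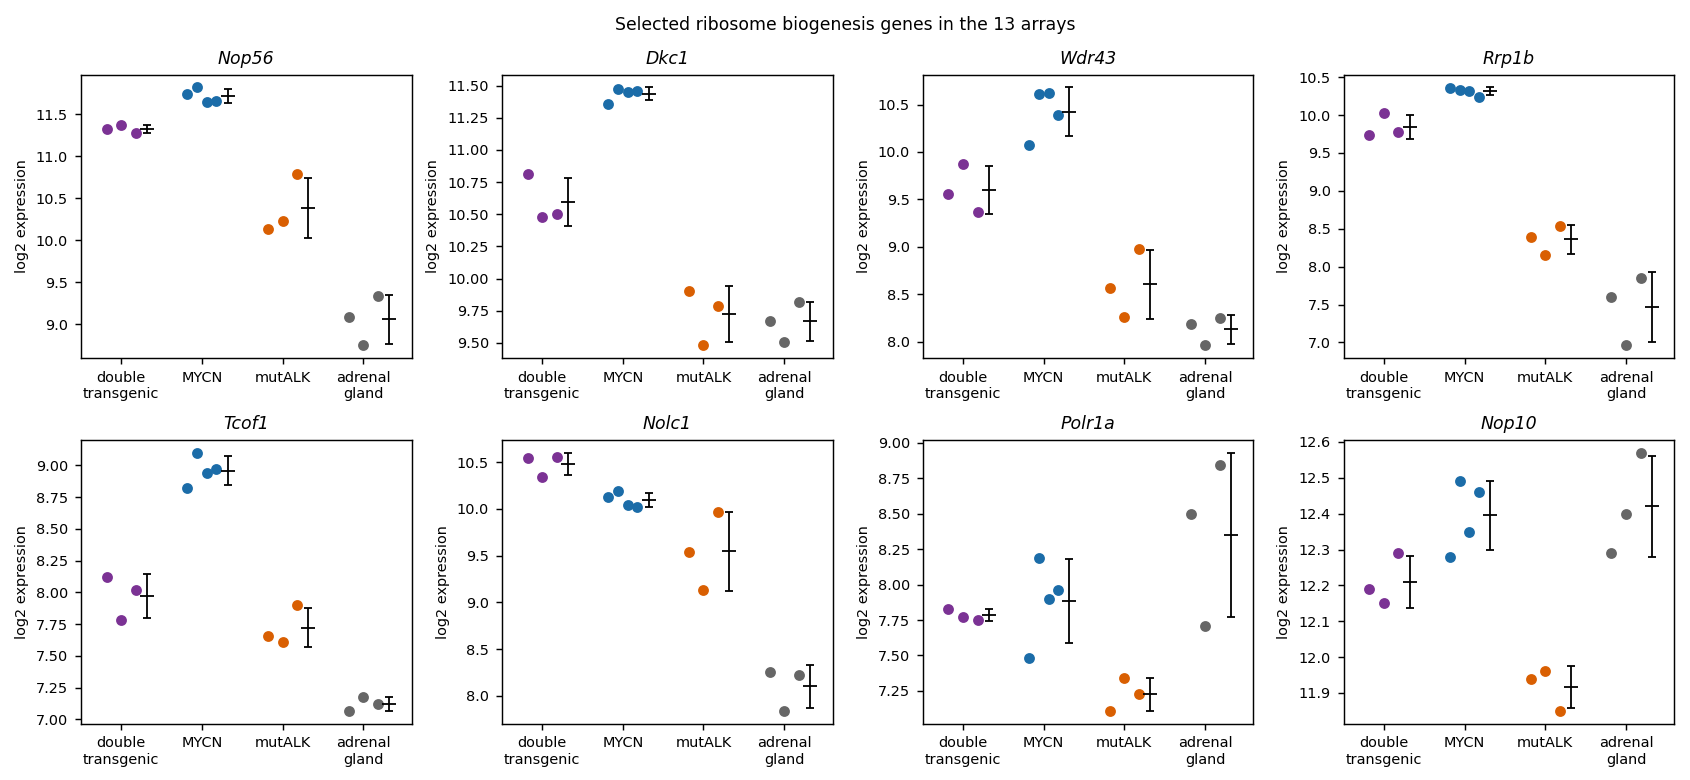
Log2 expression (vertical axes, each with its own scale) of 8 genes in the 13 arrays, 1 point per array, with bars for the group mean ± SD. Nop56, Wdr43 and Rrp1b are highest in MYCN tumours (Nop56 11.65 to 11.82) and lowest in adrenal gland (8.75 to 9.34), Dkc1 in mutALK tumours overlaps the adrenal range, Nolc1 is highest in double transgenic tumours, and Polr1a and Nop10 are lowest in mutALK tumours.

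Small subunit assembly factors rose in MYCN tumours without exception and in mutALK tumours mostly did not pass. Of 13 genes, 11 rose in double transgenic, 13 in MYCN and 3 in mutALK tumours against adrenal gland, with medians of 0.73, 1.28 and 0.21. The share that rose in mutALK tumours, 23.1%, was close to the 21.3% of all genes. They were also the step with the largest share lower in double transgenic than in MYCN tumours, 11 of 13, while 3 of 13 were higher in double transgenic than in mutALK tumours. Wdr43, a subunit of the early processome on the precursor RNA, whose promoter is printed above, read 9.56, 9.87 and 9.37 in double transgenic tumours, 10.07, 10.61, 10.62 and 10.39 in MYCN tumours and 8.57, 8.26 and 8.98 in mutALK tumours, against 8.19, 7.96 and 8.25 in adrenal gland. The MYCN arrays lay above all others, and mutALK 2 (8.26) lay just above the highest adrenal array (8.25). Wdr43 rose by 2.29 ± 0.19 (adjusted p = 1.97e-06) in MYCN and 1.47 ± 0.21 (adjusted p = 0.000111) in double transgenic tumours, the largest rises of the step, and was at 0.47 ± 0.21 (adjusted p = 0.0912) in mutALK tumours. The double transgenic value was 0.94 averaged over its probe sets. MYCN tumours exceeded mutALK tumours by 1.82 ± 0.19 (adjusted p = 7.37e-05). Double transgenic tumours exceeded mutALK tumours by 1.0 ± 0.21 (adjusted p = 0.011), and by 0.86 (adjusted p = 0.0528) without double transgenic 2.

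Tsr1, which matures the precursor of the small subunit late and carries a site printed above, read 10.42, 10.51 and 10.63 in double transgenic tumours, 10.82, 10.76, 10.61 and 10.86 in MYCN tumours and 9.94, 10.02 and 10.05 in mutALK tumours, against 9.41, 8.90 and 9.75 in adrenal gland. All tumour arrays lay above the adrenal arrays. Tsr1 had the step's largest rise in mutALK tumours, 0.65 ± 0.17 (adjusted p = 0.0101), and was at 0.44 (adjusted p = 0.143) there without the liver arrays. The other risers in mutALK tumours were Nob1, the endonuclease that makes the final cut of the small subunit RNA (0.37), and Ddx10, an RNA helicase (0.56). Imp4, which pairs the U3 snoRNA with the precursor together with Imp3, read 8.56, 8.29 and 8.26 in double transgenic tumours, 8.88, 9.53, 9.35 and 9.38 in MYCN tumours and 8.22, 8.17 and 8.78 in mutALK tumours, against 8.75, 8.66 and 8.91 in adrenal gland. MYCN 2, 3 and 4 were highest, MYCN 1 lay between adrenal arrays, and the mutALK arrays reached over both the double transgenic and the adrenal range. Double transgenic tumours were at -0.91 ± 0.18 (adjusted p = 0.00901) against MYCN tumours, the largest fall of the step. This rests on the brightest probe set: averaged over its probe sets, the value was -0.19 (adjusted p = 0.449), and another probe set of Imp4 was called the opposite way between MYCN tumours and both mutALK tumours and adrenal gland. Bysl, a factor of late small subunit maturation, resembled Imp4, rising by 0.54 ± 0.14 (adjusted p = 0.00752) in MYCN tumours but at -0.11 in double transgenic and -0.34 in mutALK tumours, neither called. Its other probe set rose by 0.65 (adjusted p = 0.00399) in double transgenic and 0.45 (adjusted p = 0.0352) in mutALK tumours. A second probe set of Imp4 likewise rose by 0.85 (adjusted p = 0.000282) and 0.80 (adjusted p = 0.00063). The other 7 genes, the U3 particle protein Rrp9, the processome subunits Nop14, Utp20, Heatr1 and Imp3, and Rrp12 and Noc4l, whose yeast counterparts act in small subunit export, rose by 0.35 to 0.87 in double transgenic and 0.85 to 1.48 in MYCN tumours, and ranged from -0.17 to 0.44 in mutALK tumours with none called.

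On the brightest probe sets, large subunit assembly factors held the largest differences of the set in MYCN tumours against adrenal gland and between the tumour groups. Of 13 genes, 11 rose in double transgenic, 13 in MYCN and 3 in mutALK tumours against adrenal gland, with medians of 0.84, 1.46 and 0.18. In mutALK tumours this share, 23.1%, was close to the 21.3% of all genes that rose there. Between the tumours, 7 of the 13 were higher in double transgenic than in mutALK tumours. Rrp1b (chr17:32036162-32062865, GRCm38.p6), a nucleolar protein of large subunit processing, read 9.74, 10.03 and 9.77 in double transgenic tumours, 10.36, 10.33, 10.32 and 10.24 in MYCN tumours and 8.39, 8.16 and 8.53 in mutALK tumours, against 7.60, 6.96 and 7.85 in adrenal gland. The 4 groups did not overlap. Rrp1b had the largest rise of the 44 in MYCN tumours, 2.84 ± 0.18 (adjusted p = 3.03e-07), the largest of the step in double transgenic tumours, 2.37 ± 0.19 (adjusted p = 2.24e-06), and the largest of the 44 between double transgenic and mutALK tumours, 1.48 ± 0.19 (adjusted p = 0.00176). In mutALK tumours it rose by 0.89 ± 0.19 (adjusted p = 0.00296). The Rrp1b rankings rest on the brightest probe set. Its other probe sets rose by 2.38 and 2.02 in MYCN tumours, below the 2.66 of Nop56. Averaged over the Rrp1b probe sets, the difference was 1.42 between double transgenic tumours and adrenal gland and 0.91 between double transgenic and mutALK tumours. The large subunit gene Ppan was at 1.45 and 1.27 in the same comparisons.

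Ebna1bp2 (chr4:118620799-118627776, GRCm38.p6), an early factor of the large subunit, read 9.90, 9.46 and 9.33 in double transgenic tumours, 10.38, 10.89, 10.67 and 10.75 in MYCN tumours and 8.70, 8.36 and 8.86 in mutALK tumours, against 8.94, 8.48 and 9.15 in adrenal gland. MYCN arrays lay above all others, and mutALK arrays overlapped the adrenal range. The difference between MYCN and mutALK tumours, 2.03 ± 0.20 (adjusted p = 4.85e-05), was the largest of the 44, and so was the fall in double transgenic against MYCN tumours, -1.11 ± 0.20 (adjusted p = 0.00594). Both depend on the probe set. Averaged over its probe sets the difference between MYCN and mutALK tumours was 0.57 (adjusted p = 0.00187) and that between double transgenic and MYCN tumours 0.08 (adjusted p = 0.722), and a dimmer probe set of the gene was called the opposite way in both comparisons. The brightest probe set had a mean of 9.53 over all arrays, and the others 5.78 and 4.77. Gnl3 (nucleostemin, a GTP-binding protein of proliferating cells) and Ppan resembled Ebna1bp2 between MYCN and mutALK tumours, with differences of 1.74 ± 0.17 and 1.73 ± 0.14. The methyltransferase Nop2, Nop16, Nip7, Wdr74, the histone-binding protein Grwd1 and Noc2l rose by 1.02 to 1.81 in MYCN tumours. In double transgenic tumours they lay at 0.33 to 1.28, all called but Nip7. In mutALK tumours Noc2l rose by 0.49 ± 0.15 (adjusted p = 0.0213) and the others, at 0.02 to 0.51, did not pass.

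The PeBoW complex, which consists of Pes1, Bop1 and Wdr12 and matures the large subunit RNA, was uneven in mutALK tumours on the brightest probe sets. Wdr12 read 9.59, 9.32 and 9.39 in double transgenic tumours, 9.58, 10.02, 10.02 and 9.93 in MYCN tumours and 9.07, 9.35 and 9.55 in mutALK tumours, against 8.12, 8.25 and 8.22 in adrenal gland. Every tumour array lay above the adrenal arrays. The double transgenic arrays overlapped both other tumour groups, while the MYCN arrays lay above the mutALK arrays (difference 0.56 ± 0.14, adjusted p = 0.00988). Wdr12 rose by 1.12 ± 0.15 (adjusted p = 0.000117) in mutALK tumours, the step's largest, while Pes1 was at 0.13 ± 0.16 (adjusted p = 0.592) and Bop1 at -0.13 ± 0.13 (adjusted p = 0.495). In MYCN tumours all 3 rose, by 0.79 to 1.69. In double transgenic tumours Wdr12 (1.23) and Bop1 (0.40) rose and Pes1 was at 0.38 ± 0.16 (adjusted p = 0.0799). A dimmer probe set of Pes1 rose in both, by 1.15 (adjusted p = 0.00193) in double transgenic and 0.82 (adjusted p = 0.0174) in mutALK tumours.

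The 3 genes of several steps encode nucleolar proteins, and they rose in all tumours with 1 exception. Npm1, a chaperone of the outer, granular part of the nucleolus, read 13.15, 13.14 and 12.86 in double transgenic tumours, 13.20, 13.44, 13.41 and 13.38 in MYCN tumours and 12.63, 12.53 and 12.88 in mutALK tumours, against 11.72, 11.36 and 11.84 in adrenal gland. Tumour and adrenal arrays did not overlap. It rose by 1.04 ± 0.15 (adjusted p = 0.000166) in mutALK tumours, the largest of the 3. Ncl, which binds precursor RNA and chromatin, read 12.84, 12.82 and 12.55 in double transgenic tumours, 12.82, 13.17, 13.06 and 12.99 in MYCN tumours and 11.96, 12.10 and 12.64 in mutALK tumours, against 11.34, 10.85 and 11.48 in adrenal gland, and it too had no overlap between tumours and adrenal gland. Ncl rose by 1.79 ± 0.19 (adjusted p = 1e-05) in MYCN, 1.52 ± 0.20 (adjusted p = 6.9e-05) in double transgenic and 1.01 ± 0.20 (adjusted p = 0.00169) in mutALK tumours. The helicase Ddx21 was the exception, at 0.49 ± 0.27 (adjusted p = 0.176) in mutALK tumours. It had the largest of the 3 differences between MYCN and mutALK tumours, 1.05 ± 0.25 (adjusted p = 0.00823). On the brightest probe sets none of the 3 was called between double transgenic tumours and either of the other tumour groups.

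Of 104 further genes of the pathway, 103 were measured. Against adrenal gland 63 rose and 3 fell in double transgenic tumours (median 0.55), 88 rose and 2 fell in MYCN tumours (0.96), and 22 rose and 7 fell in mutALK tumours (0.21). Over all genes, 24.3% rose and 24.2% fell in double transgenic tumours, 25.3% and 24.8% in MYCN and 21.3% and 21% in mutALK tumours. The share of these further genes that rose in mutALK tumours, 21.4%, was close to that of all genes. MYCN tumours were higher than mutALK tumours for 80 and lower for 1 (median 0.79). Double transgenic tumours were higher than mutALK tumours for 25 and lower for 1 (0.32), and higher than MYCN tumours for 1 and lower for 45 (-0.46). Over all genes, 17.2% were higher and 13.6% lower in MYCN than in mutALK tumours. Double transgenic tumours were higher than mutALK tumours for 8.39% of all genes and lower for 6.03%. Against MYCN tumours these shares were 6.16% and 6.66%. Taf1d, a subunit of the polymerase I selectivity factor, had the largest rise between MYCN and mutALK tumours, 2.48 ± 0.32 (adjusted p = 0.000206), and Rrp15, of large subunit assembly, rose most in MYCN tumours against adrenal gland, 2.43 ± 0.29 (adjusted p = 2.77e-05). Ruvbl2, an ATPase of snoRNP assembly, rose by 2.03 ± 0.11 (adjusted p = 1.08e-07) in MYCN tumours. Znhit6, another snoRNP assembly factor, had the largest rises in double transgenic, 2.12 ± 0.28 (adjusted p = 6.65e-05), and mutALK tumours, 1.65 ± 0.28 (adjusted p = 0.000587). Aatf and Mphosph10, both of small subunit processing, were furthest below MYCN tumours in double transgenic tumours, at -1.20 ± 0.14 (adjusted p = 0.000799) and -1.16 ± 0.13 (adjusted p = 0.00069).

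Among the MYC family members and Max, Mycn and Myc clearly departed from the group order of the ribosome biogenesis genes (± SD, with n as above). Mycl departed from it only between double transgenic and MYCN tumours, and Max only between double transgenic and mutALK tumours. Both of these differences were smaller than the SD of either group. The mouse Mycn probe set averaged 10.19 ± 0.64 in double transgenic, 6.35 ± 0.86 in MYCN and 12.03 ± 0.33 in mutALK tumours, against 7.69 ± 0.92 in adrenal gland, and whether it reads the transgene is not given. Myc averaged 6.14 ± 0.28, 6.43 ± 0.29 and 7.88 ± 0.76 in the same tumours, against 9.27 ± 0.91 in adrenal gland, Mycl 8.05 ± 0.47, 7.89 ± 0.44 and 6.26 ± 0.42, against 5.0 ± 0.27, and their partner Max 8.27 ± 0.09, 8.68 ± 0.11 and 8.30 ± 0.13, against 7.75 ± 0.19.

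Of the 44 genes, 30 had 47 other probe sets. Between MYCN tumours and adrenal gland 35 of the 47 were called the same way as the brightest probe set of their gene, and 1, of Imp4, the opposite way. Between MYCN and mutALK tumours 31 were called the same way and 2 the opposite way, of Imp4 and Ebna1bp2, and between double transgenic and MYCN tumours 12 the same way and 1 the opposite way, of Ebna1bp2. In the other 3 comparisons 0 were called the opposite way. For mutALK tumours against adrenal gland 10 of the 47 were called the same way and 5 were called where the brightest probe set was not. Such calls numbered 4 for double transgenic tumours against adrenal gland, 5 for double transgenic against MYCN tumours and 1 each for double transgenic against mutALK tumours and MYCN tumours against adrenal gland. Besides those given above they were rises of Nip7 in mutALK (0.65) and double transgenic tumours (0.93), of Polr1a in MYCN tumours (1.31) and of Grwd1 in double transgenic against mutALK tumours (0.47). Against MYCN tumours they were falls in double transgenic tumours of Nop56 (-0.77), Ddx21 (-0.84) and Rrp1b (-1.22 and -1.29).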

How the data were processed

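RNA of 10 tumours and 3 adrenal glands was measured on Affymetrix mouse arrays. The authors deposited RMA values on the log2 scale, made in Partek per the submitters' processing notes, which give no versions. Detection calls and signal over background were not used here, and the number of arrays limits the precision.

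Of 45101 probe sets (64 controls), 34958 with exactly 1 gene symbol were used; 932 with several and 9211 with none were left out. A RefSeq table of GRCm38.p6 matched 34754 of the named probe sets and changed 0 symbols. Genes were read on their brightest probe set (18194 genes, no filter on dim genes). All 13 arrays entered a single limma 3.58.1 fit in R 4.3.3 (lmFit and eBayes, a mean for each group, 9 residual and 2.28 prior degrees of freedom). The 6 contrasts were tested two-sided and adjusted by Benjamini-Hochberg over all genes; a gene is called, or rose or fell, at an adjusted p under 0.05.

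The genes, the lists and the leaving out of the liver arrays were chosen with earlier results of these data known. Genes given in full are, per comparison and step, those with the largest called rise and fall and those called against the rest; others were named for their role. The alternatives were other probe set rules, leaving out the dimmest 40% of genes, renormalization, median centring, a robust variance trend, array weights, the compared groups alone, leaving out each array or the liver arrays, averaging arrays that share a title number, and sex as a covariate, since sex was unbalanced (read from the arrays, 2 male and 1 female double transgenic, 3 and 1 MYCN, 1 and 2 mutALK, and 0 and 3 adrenal arrays). On simulated data for 18194 genes the fit found 64 to 72% of the genes changed by 1 log2 unit, 90 to 96% of those changed by 2, and 5 to 11 unchanged ones per comparison. In each simulated comparison 100 genes were changed by each amount, and the noise was independent between genes. Far more genes were called in the data, so these rates need not hold there. Motif counts and figures were made in Python 3.11.15 with matplotlib 3.10.9.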

Additional observations from a re-analysis of the deposited data

Results flagged for a closer look

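Polr1b, a subunit of RNA polymerase I, was at 8.88 in MYCN 1, below the other MYCN arrays, which lay between 9.07 and 9.11. This gap took up 0.833 of the range of the group, past Dixon's 95% limit for 4 arrays. MYCN 1 was the lowest MYCN array for 35 of the 44 genes. It was the only value past the limit among 50 tested, and chance flags about 1 in 20 such groups.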

How the results depend on the processing

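In mutALK tumours against adrenal gland the 20 called genes became 12 with the compared groups alone, and the median was 0.09 without the liver arrays. The 17 genes called between double transgenic and mutALK tumours became 11 with the compared groups alone and 9 to 23 on leaving out 1 array. The 26 called between double transgenic and MYCN tumours became 14 to 31 on leaving out 1 array and 17 without the liver arrays. In MYCN tumours against adrenal gland the median was 1.24 without the liver arrays. Ebna1bp2 turned to 0.08 in double transgenic against MYCN tumours when its probe sets were averaged. Of the other values of single genes, 24 kept their direction and missed the threshold and 719 stayed as reported; of the counts and medians 275 stayed within the limits set. The causes were not tested, and the shares of all genes called under these settings are not given here. Without the liver arrays 1 mutALK, 3 MYCN, 2 double transgenic and 2 adrenal arrays remain. No paired analysis was possible because the titles give the tumour groups no replicate numbers shared with another group.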

Other observations

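Some genes of the pathway moved against its main direction. Ttf1, which ends RNA polymerase I transcription, fell against adrenal gland in double transgenic, -0.87 ± 0.16 (adjusted p = 0.00067), and MYCN tumours, -0.68 ± 0.15 (adjusted p = 0.0022), and was lower in both than in mutALK tumours, at -0.68 ± 0.16 (adjusted p = 0.0171) and -0.49 ± 0.15 (adjusted p = 0.0255). Riok2, a kinase of late small subunit maturation, fell in all 3 tumour groups, at -0.93 ± 0.22 (adjusted p = 0.00445) in double transgenic, -0.67 ± 0.21 (adjusted p = 0.019) in MYCN and -1.07 ± 0.22 (adjusted p = 0.00233) in mutALK tumours. Pno1, which acts in the same late step, fell in double transgenic, -1.0 ± 0.22 (adjusted p = 0.00251), and mutALK tumours, -0.85 ± 0.22 (adjusted p = 0.00841). The other falls in mutALK tumours were those of Bud23 (-0.71), Naf1 (-0.71), Polr1d (-0.69), Utp11 (-0.43) and Rrp36 (-0.37). Tgs1, which caps small nucleolar RNAs, was the only one of the further pathway genes that exceeded MYCN tumours in double transgenic tumours, at 0.40 ± 0.09 (adjusted p = 0.0186).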
